A study of Bactrocera dorsalis with 4 samples.

Results

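The miRNAs described here were miR-1003-3p, miR-1004-3p and miR-1012-3p, which are named after miRNAs that are classed as mirtrons in Drosophila melanogaster. They were selected by name from the 4 lists of known miRNAs of Bactrocera dorsalis, the oriental fruit fly, as every entry that carries the number of miR-1003, miR-1004 or miR-1012, on any arm, whose miRBase column read Yes or Diff. This gave 3 names of the 163 known names, with 4 entries in all, where an entry is 1 sequence at 1 position in 1 list. The names and the status column chose the members, and which libraries list them was known when the group was proposed, so the listings below are given as a description with no test.

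The study asked which miRNAs differ between the sexes and the gonads. Small RNA of adults aged 12 days was sequenced from females with the ovaries taken out, males with the testes taken out, ovaries, and testes. All groups were dissected from mature flies reared on artificial diet that had been kept apart by sex since emergence, and the labels name no strain and no treatment. Each group was 1 library, and neither the labels nor the methods give the number of flies behind it.

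A mirtron is a short intron that folds into a hairpin once it has been spliced out and its lariat opened. Its ends are set by the splice sites, so it does not need the nuclear cut by Drosha that other miRNA precursors need, and Dicer then frees the mature strand. In flies this route is known to feed the same Argonaute pathway as other miRNAs. Introns of the usual kind begin with GT and end with AG, and the 3p strand of a mirtron therefore lies against the 3' splice site. The deposited lists do not mark any entry as a mirtron, and below the word gives the class of a name in D. melanogaster.

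The mature sequences are shown first because the seed is the part that pairs with a target. Each is written 5' to 3' as in the lists, with T for U, and capitals mark the seed at bases 2 to 8.
miR-1003-3p: tCTCACATttacatattcaca
miR-1004-3p: tCTCACATcacttccctcacag
miR-1012-3p: tTAGTCAAagattttccccatag

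miR-1003-3p and miR-1004-3p had the same seed, CTCACAT, and were identical over their first 8 bases. Lined up from base 1 without gaps, they shared 13 of 21 bases (61.9%). miR-1012-3p, with the seed TAGTCAA, matched miR-1003-3p at 6 of 21 bases (28.6%) and miR-1004-3p at 7 of 22 (31.8%). Among all entries of the lists, those marked New included, no name other than miR-1003-3p and miR-1004-3p had CTCACAT at bases 2 to 8, and no other name had TAGTCAA there. No predicted miRNA had either seed. When the seed was shortened to bases 2 to 7, miR-2a-5p, in a form listed on a B. dorsalis contig, joined miR-1003-3p and miR-1004-3p, and nothing joined miR-1012-3p.

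All 3 members were listed in testes, 1 was listed in males, and none was listed in females or ovaries. miR-1003-3p had 1 entry, in testes. miR-1004-3p also had 1 entry, again in testes. miR-1012-3p had 2 entries, 1 in males and 1 in testes, with the same sequence and the same position. Thus no member was in a list from a female source, and the 2 lists with a member were those of the male body and the male gonad. Among all 163 known names, members included, 8 were listed in males alone, 7 in testes alone and 3 in exactly these together. On the female side, 8 were listed in females alone, 2 in ovaries alone and 2 in exactly these together.

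**Figure D1:**
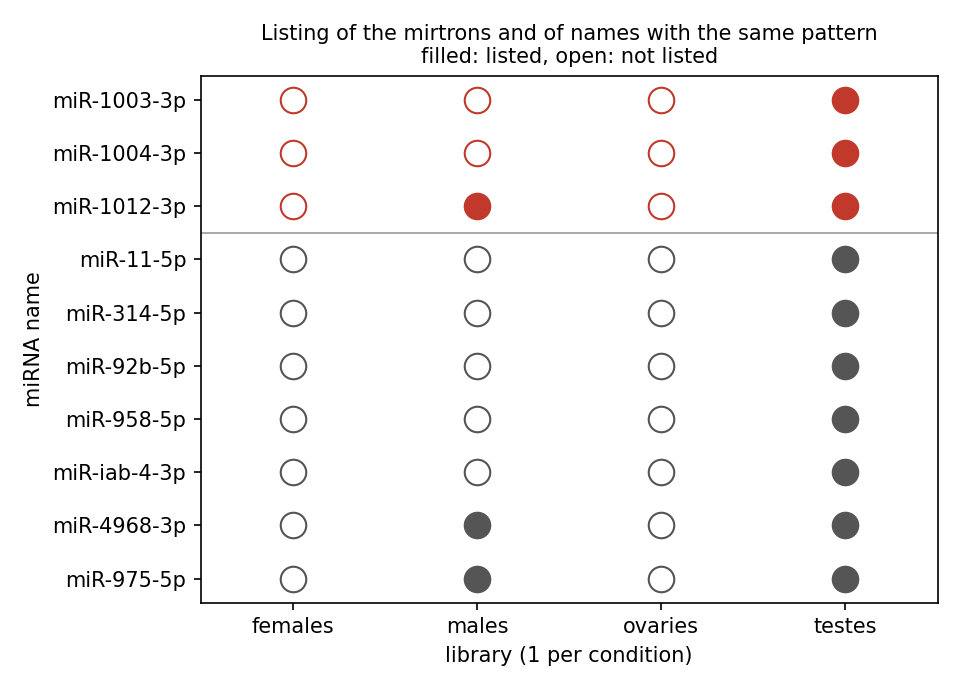
Listing of the 3 mirtron names (red, above the line) and of the 7 other known names with the same pattern (grey) in the 4 libraries on the horizontal axis, where a filled circle is a name in the list of that library and an open circle a name that is not. All 3 mirtron names are filled in testes, miR-1012-3p is also filled in males, and the columns of females and ovaries are open throughout.

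The lists of the 4 libraries were of similar length, with 194 entries for ovaries, 208 for testes, 228 for females and 235 for males. Over the 163 known names, the list of females held 84.0% (95% exact binomial interval 77.5% to 89.3%) and that of males also 84.0% (77.5% to 89.3%). The testes list held 82.2% (75.5% to 87.7%) and the ovary list 74.8% (67.5% to 81.3%), and these intervals cover counting error only. Most known names, 106 or 65.0%, were listed in all 4 libraries, and none of the members was. The number of reads behind an entry is unknown here, so a listing gives no level, and a name that is not listed may still be in the tissue below the depth of that library. The study reported the most clean reads for males, followed by testes, females and ovaries. The lists with a member thus came from the libraries with more clean reads, while by raw reads testes had the fewest. Whether depth has a part in their listing was not tested. The listings come from 1 library per group and have no replicate check.

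**Figure D2:**
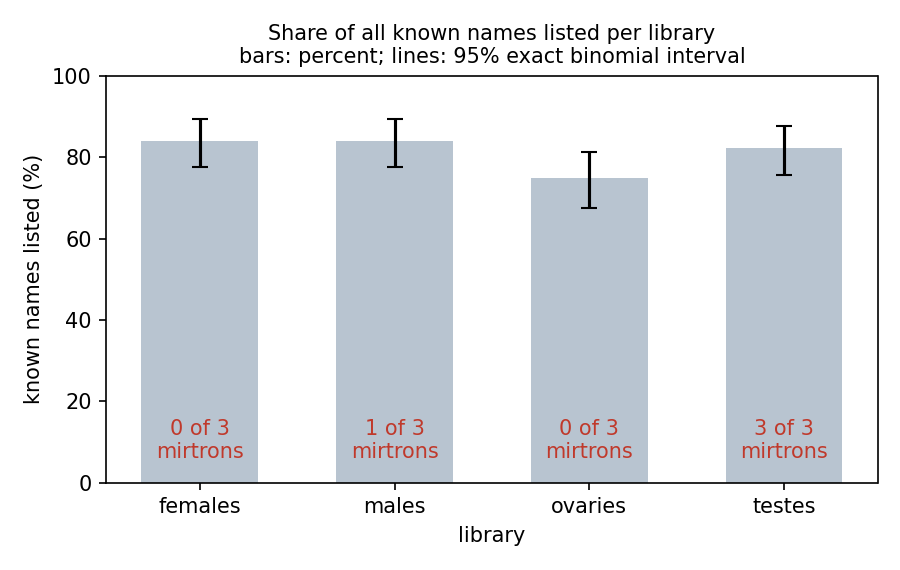
Share of the 163 known names that each list holds, in percent on the vertical axis, by library, with the 95% exact binomial interval as a line and the number of mirtron names written in each bar. The bars lie between 74.8% in ovaries and 84.0% in both bodies, while the mirtron names number 0, 1, 0 and 3 of 3.

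Markers set for each tissue were read in the same way. Of 5 miRNAs set as ovary markers, the lists of females, ovaries and testes held all 5 and that of males 4, without miR-309. The presence of these names thus did not separate the gonads. The study names all 5 among its female-biased miRNAs, so this list is not independent of these data. Of 9 miRNAs known from the Drosophila testis, 3 were listed in testes, 3 in ovaries, 4 in females and 2 in males. miR-1, the muscle miRNA, was listed in every library and miR-133 in none. The 4 miRNAs of the nervous system were in all 4 lists. Whether RNA carried over between tissues has a part in the listing of the members was not tested.

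The names most like the members were those with the same listed or unlisted state in all 4 libraries. The pattern of miR-1003-3p and miR-1004-3p, testes alone, was that of 7 names in all (4.29% of 163). The other 5 were miR-11-5p, miR-314-5p, miR-92b-5p, miR-958-5p and miR-iab-4-3p. The pattern of miR-1012-3p, males with testes, was that of 3 names (1.84%), and the others were miR-4968-3p and miR-975-5p. A further 8 names had the state of miR-1003-3p in 3 of 4 libraries, 8 had that of miR-1004-3p and 26 that of miR-1012-3p.

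The opposite arm, the other strand of the hairpin, was looked up for each of these names. Of the 7 names that shared a pattern with a member, 5 had an opposite arm that was listed in all 4 libraries, namely miR-11-3p, miR-314-3p, miR-92b-3p, miR-958-3p and miR-iab-4-5p. They are the opposite arms of the 5 other names listed in testes alone. miR-4968-3p and miR-975-5p, which share the pattern of miR-1012-3p, had none. No 5p arm was listed for miR-1003, miR-1004 or miR-1012 in any library, under any status. The other sequences in the lists and among the predicted miRNAs were compared with the member precursors on either strand. The longest shared run was 9 bases for miR-1003, 9 for miR-1004 and 10 for miR-1012. The comparison took exact runs, against precursors placed under D. melanogaster arm names. It therefore cannot tell whether a 5p strand of a different sequence was listed under another name.

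All 3 members were placed under chromosome arm names and none on a contig of the B. dorsalis genome. The arm names are those of D. melanogaster, and their build is not given in the sources used here. The precursor of miR-1003-3p lay on the plus strand of 3R from 20484327 to 20484382. That of miR-1004-3p was on the plus strand of 2L from 3767621 to 3767688, and that of miR-1012-3p on the minus strand of 3R from 22687071 to 22687129. The genes and introns at these positions were not looked up here. Of the 163 known names, 73 (44.8%) had at least 1 entry under an arm name and 32 (19.6%) had all their entries there, as the members did. Of these 32, the testes list held 19 (59.4%), the male list 17 (53.1%), the female list 15 (46.9%) and the ovary list 13 (40.6%). The lists therefore held fewer of the names placed under arms alone than of all known names, in each of the 4 libraries. The nearest start of another name was 930254 bases away for miR-1003-3p (miR-1000-5p), 1873319 for miR-1004-3p (miR-959-3p) and 1209951 for miR-1012-3p (miR-92b-3p), and no entry lay within 10000 bases. These distances are among entries under the same D. melanogaster arm name and do not give the spacing in the B. dorsalis genome. Of the 73 names with an entry under an arm name, 47 (64.4%) likewise had no miRNA of another number within that distance there, and of the 32 placed under arms alone, 12 (37.5%), members included.

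miR-1004-3p and miR-1012-3p had the status Yes, and miR-1003-3p had Diff. The headers do not define these words, which by their column say whether the sequence is in miRBase. The status Yes was given to 62 of the 235 distinct known sequences (26.4%), and to 15 of the 32 names placed under arms alone (46.9%). Each member had a single sequence, like 111 of the 163 names (68.1%). Their lengths were 21 nt for miR-1003-3p, 22 nt for miR-1004-3p and 23 nt for miR-1012-3p, which are the 3 most frequent lengths of known sequences, with 56, 90 and 36 of the 235.

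The precursors are shown because they begin and end with the letters of an intron, GT and AG. No intron was looked up at their positions. The sequences were read from the study's own list of known miRNAs, 5' to 3' on the strand given above, and capitals mark the first 2 and the last 2 bases.
miR-1003: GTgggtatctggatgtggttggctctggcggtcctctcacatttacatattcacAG
miR-1004: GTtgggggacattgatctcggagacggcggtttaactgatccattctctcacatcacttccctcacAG
miR-1012: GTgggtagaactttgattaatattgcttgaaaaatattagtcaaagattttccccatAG

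Each of the 3 precursors began with GT and ended with AG. Of the 129 distinct precursor sequences of known miRNAs, these 3 were the only ones with both ends (2.33%). GT alone was at the start of 4 (3.10%) and AG alone at the end of 7 (5.43%), members included in both counts. None of the 214 distinct precursors of predicted miRNAs had both ends. These letters are a description of the sequence given for each precursor, and how far a precursor was drawn past its hairpin can change its first and last bases. The members were chosen by names classed as mirtrons in D. melanogaster, and their precursors stand at arm positions of that species. Their ends and short length therefore follow from the choice of names and give no support for introns in B. dorsalis.

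The mature strand lay at or next to the 3' end of the precursor in all 3. That of miR-1004-3p ran from base 47 to base 68, the last base, and that of miR-1012-3p from base 37 to base 59, also the last. Both therefore ended in AG, as did 14 of the 235 known sequences (5.96%). The mature strand of miR-1003-3p ran from base 35 to base 55 of 56 and ended in CA, and the last base of the precursor, a G, was left out of the listed form. It was the member with the status Diff.

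The 3p strands were rich in pyrimidines, C and T, for 2 of the 3. The share was 66.7% in miR-1003-3p, 72.7% in miR-1004-3p and 56.5% in miR-1012-3p, where the median of the 235 known sequences was 52.4%. Of those sequences, 212 were at or below miR-1003-3p, 230 at or below miR-1004-3p and 150 at or below miR-1012-3p, each counted with the member itself.

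The member precursors were short. Their lengths were 56 nt for miR-1003, 68 nt for miR-1004 and 59 nt for miR-1012, against a median of 91 nt over the 129 precursors, which ran from 56 to 174 nt. Precursors under arm names were not set apart from those on contigs in this background, here or for the folding energies below. None was shorter than miR-1003, 1 was shorter than miR-1012 (miR-1003 itself) and 11 were shorter than miR-1004, members included. By the positions in the deposited lists, which also hold shorter windows, 33 of 194 positions (17%) were no longer than 68 nt, with a median of 89 nt and a lowest value of 20 nt.

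**Figure D3:**
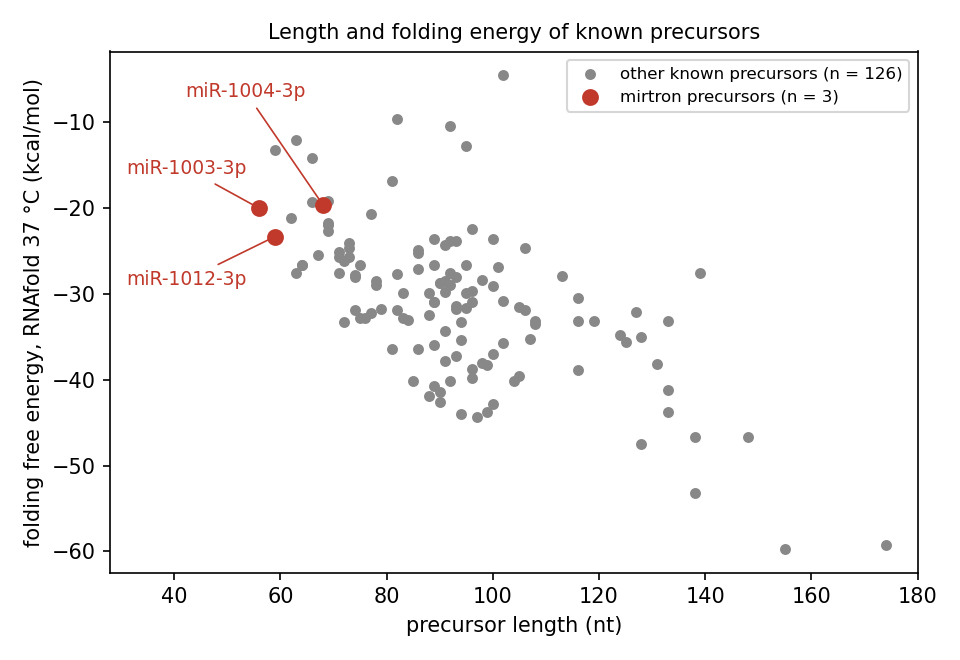
Length in nt (horizontal axis) and folding free energy from RNAfold at 37 °C in kcal/mol (vertical axis) of the 129 known precursors, with the 3 mirtron precursors in red and the other 126 in grey. The mirtron precursors sit at the short end, from 56 to 68 nt, with energies of -23.3 to -19.6 kcal/mol.

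Folded with RNAfold at 37 °C, each member precursor gave a single hairpin. The free energy was -20.0 kcal/mol for miR-1003, -19.6 kcal/mol for miR-1004 and -23.3 kcal/mol for miR-1012, and the median of the 129 was -30.8 kcal/mol. Per nt, miR-1012 was at -0.395 and miR-1003 at -0.357 kcal/mol, both lower than the median of -0.338, while miR-1004 was higher at -0.288. Lower energies per nt than these were found for 27, 50 and 99 of the 129 precursors. The number of base pairs was 23 in miR-1012, 21 in miR-1003 and 21 in miR-1004, and 3, 6 and 4 of them were pairs of G with U. Pairs that held a base of the mature strand numbered 19 for the 23 nt of miR-1012-3p, 17 for the 21 nt of miR-1003-3p and 14 for the 22 nt of miR-1004-3p. The hairpins of miR-1003 and miR-1012 had their first base paired and left 2 bases free at the 3' end, which were the AG. In miR-1004, 2 bases were free at the 5' end and 3 at the 3' end. G and C made up 50% of the miR-1003, 51.5% of the miR-1004 and 30.5% of the miR-1012 precursor, where the median was 41.5%.

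The mirtrons of D. melanogaster with the names miR-1003 to miR-1016 were taken as a wider list of 14. Of these, 3 were listed in any library, which were the members, and the other 11 were not, with entries marked New included. Of the 11, none can be read as absent from B. dorsalis, since the lists record only what a library was found to hold.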

How the data were processed

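The 4 libraries were made from total RNA with the TruSeq small RNA kit. The authors trimmed the reads, discarded those that matched mRNA, Rfam or Repbase, and took as known the reads with at most 1 mismatch to miRBase or to earlier B. dorsalis miRNAs. The labels name ACGT101-miR version 4.2. The deposited lists hold names, sequences, lengths in nt, precursor positions and a status, with no amounts, so the depth behind an entry is unknown. A further deposited table holds predicted miRNAs of all libraries combined, in which 1 line was left blank.

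Members and lists were chosen with earlier results of these data known. Entries marked New were left out of the known names, and copy numbers within a name were ignored. Every other name with a member's pattern or seed was named. Precursor sequences, and no values, came from the supplementary list of known miRNAs, whose copy held 182 names and 129 precursors. Folding used RNAfold 2.7.2, intervals used scipy 1.17.1 (exact Clopper-Pearson), and plots used matplotlib 3.10.9 in Python 3.11.15. The functions were tested on made-up cases, and 16 of 16 came out as planted. With 1 library per group, no test between groups was made. The alternatives tried were other units of counting, entries marked New, entries under arm names, a shorter seed and another folding temperature.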

Additional observations from a re-analysis of the deposited data

How the results depend on the processing

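Of 44 alternatives, 29 were labelled the same and 15 moved, by a limit of 1.5 times for counts and the 95% interval for shares. The free energies at 25 °C, which are neither counts nor shares, were among the 15. Counting sequences or entries, matching by sequence and adding entries marked New left the members at 3 in testes, 1 in males and 0 in both female libraries. Counting sequences or entries and adding entries marked New could not move these counts. Each member had a single sequence, no more than 1 entry in a list and no entry marked New. Without entries under an arm name the members fell to 0 in males and 0 in testes, since none lies on a contig. That setting gave known names listed of 83.2% in ovaries, 86.3% in testes, 90.1% in males and 93.1% in females, of which the testes value lay within its 95% interval. With entries marked New the shares were 67.1% in ovaries, 73.8% in testes, 74.8% in females and 75.2% in males, and 34.8% of names had a place under an arm name. Counted by entries that last share was 31.2%. At 25 °C the free energies were -27.0 kcal/mol for miR-1003, -25.5 kcal/mol for miR-1004 and -29.8 kcal/mol for miR-1012. Shared seeds, summed over the members, rose from 2 names to 4 with bases 2 to 7, since miR-2a-5p was counted once each for miR-1003-3p and miR-1004-3p. The search of a genome for copies of the members was not run. No paired analysis was possible because each group had 1 library. Depth per entry was unknown, so no limit could be set on a name that was not listed.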
